A study of Mus musculus with 40 samples.

Results

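The genes described here encode nucleolar proteins that make ribosomes. They comprise 46 genes chosen by symbol, and all 46 were found among the 53465 gene identifiers of the count table and passed the filter on low counts. The cells were mouse bladder urothelial cells grown as organoids, which are cultures of epithelium in a supporting matrix, and their polyadenylated RNA was sequenced. The 8 libraries form 4 groups of 2: dKO cells given MI-503, dKO cells given DMSO, wild-type (WT) cells given MI-503 and WT cells given DMSO. MI-503, a small molecule that blocks the binding of menin to the histone methyltransferase KMT2A, was given at 1 µM for 4 days, and DMSO is its solvent. The dKO label stands for a double knockout of Kmt2c and Kmt2d, which encode H3K4 methyltransferases of enhancers. Every group shared the organoid medium, which holds EGF, Noggin, R-spondin, a ROCK inhibitor and a TGF-beta receptor inhibitor. The age and sex of the mice, the way the knockout was made and whether the libraries of a group came from separate cultures are not given in the labels. All p-values therefore measure the spread between these libraries only.

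Ribosomes are built in the nucleolus, where RNA polymerase I copies the ribosomal DNA into a long precursor. Box C/D and box H/ACA particles, each a guide RNA with a few proteins, modify that precursor, and the small subunit processome folds and cuts it into the small subunit RNA while other factors assemble the large subunit. Many of these genes are known targets of the transcription factor MYC, and growing cells use them heavily.

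Library totals ran from 58113705 to 68571176 counts, and all values below are CPM, read counts brought to a common library total, with library sizes scaled by the trimmed mean of M values (TMM). Kmt2c measured 26.6 and 29.8 CPM in dKO MI-503, 55.2 and 52.3 CPM in dKO DMSO, 60.3 and 61.6 CPM in WT MI-503 and 110 and 111 CPM in WT DMSO. Kmt2d measured 104 and 86.5 CPM in dKO MI-503, 111 and 133 CPM in dKO DMSO, 75.8 and 65.7 CPM in WT MI-503 and 95.4 and 86.5 CPM in WT DMSO. Kmt2c was thus lower in the libraries labelled dKO and Kmt2d was not, and counts over a whole gene cannot show the loss of single exons; dKO below means the libraries so labelled. The basal urothelial keratin gene Krt5 ranged from 3817 to 11012 CPM over the libraries, whereas Upk2, a uroplakin gene of the superficial layer, stayed at or below 9 counts in each library. Markers of that layer did not behave alike, since the uroplakin gene Upk1b ranged from 97.5 to 144 CPM and Krt20 from 0.26 to 11.3 CPM. Col1a2, Dcn, Lum and Adgre1 were at 0 in all 8 libraries, and Ptprc, Cd3e, Cdh5 and Kdr had at most 3 counts in any of them. The WT DMSO libraries stood apart by their ER chaperone genes, whose 14 members took 3.59% and 3.86% of counts there, against 0.371% to 0.508% in the other 6 libraries. Their TMM factors, 0.896 and 0.892, were also the lowest. Levels in WT DMSO depended on the scaling used. TMM computed without the ER chaperone and ribosomal protein genes changed little, however. With it, the median log2 fold change of all genes moved by 0.0013 for dKO against WT in DMSO and by 0.0024 for MI-503 in WT.

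MI-503 was followed by lower RNA of most nucleolar ribosome biogenesis genes in both genotypes. In dKO cells 32 of the 46 genes fell and 7 rose, where 26.5% and 29.1% of all 16921 genes tested fell and rose, and their median log2 fold change was -0.38 against 0.031 for all genes. In WT cells 34 fell and 4 rose, where 33.7% and 35.2% of all genes fell and rose, and the median was -0.64 against 0.031. Fallen and risen mean an adjusted p under 0.05 in edgeR's quasi-likelihood test over all genes. A set of 27 genes fell in both genotypes, and in 24 of these the fall was larger in WT. Larger effects in WT were general. The median absolute log2 fold change was 0.40 in dKO and 0.63 in WT over all genes tested, and 0.43 and 0.66 over the 46 genes. How many of all genes fell in both genotypes was not counted. Changes of at least 2-fold downward were found in 5 of the 46 genes in dKO and 10 in WT. Of all 16921 genes tested, 879 fell that far in dKO and 2025 in WT. In bulk RNA, fewer cells with a transcript and less of it per cell cannot be told apart.

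**Figure D1:**
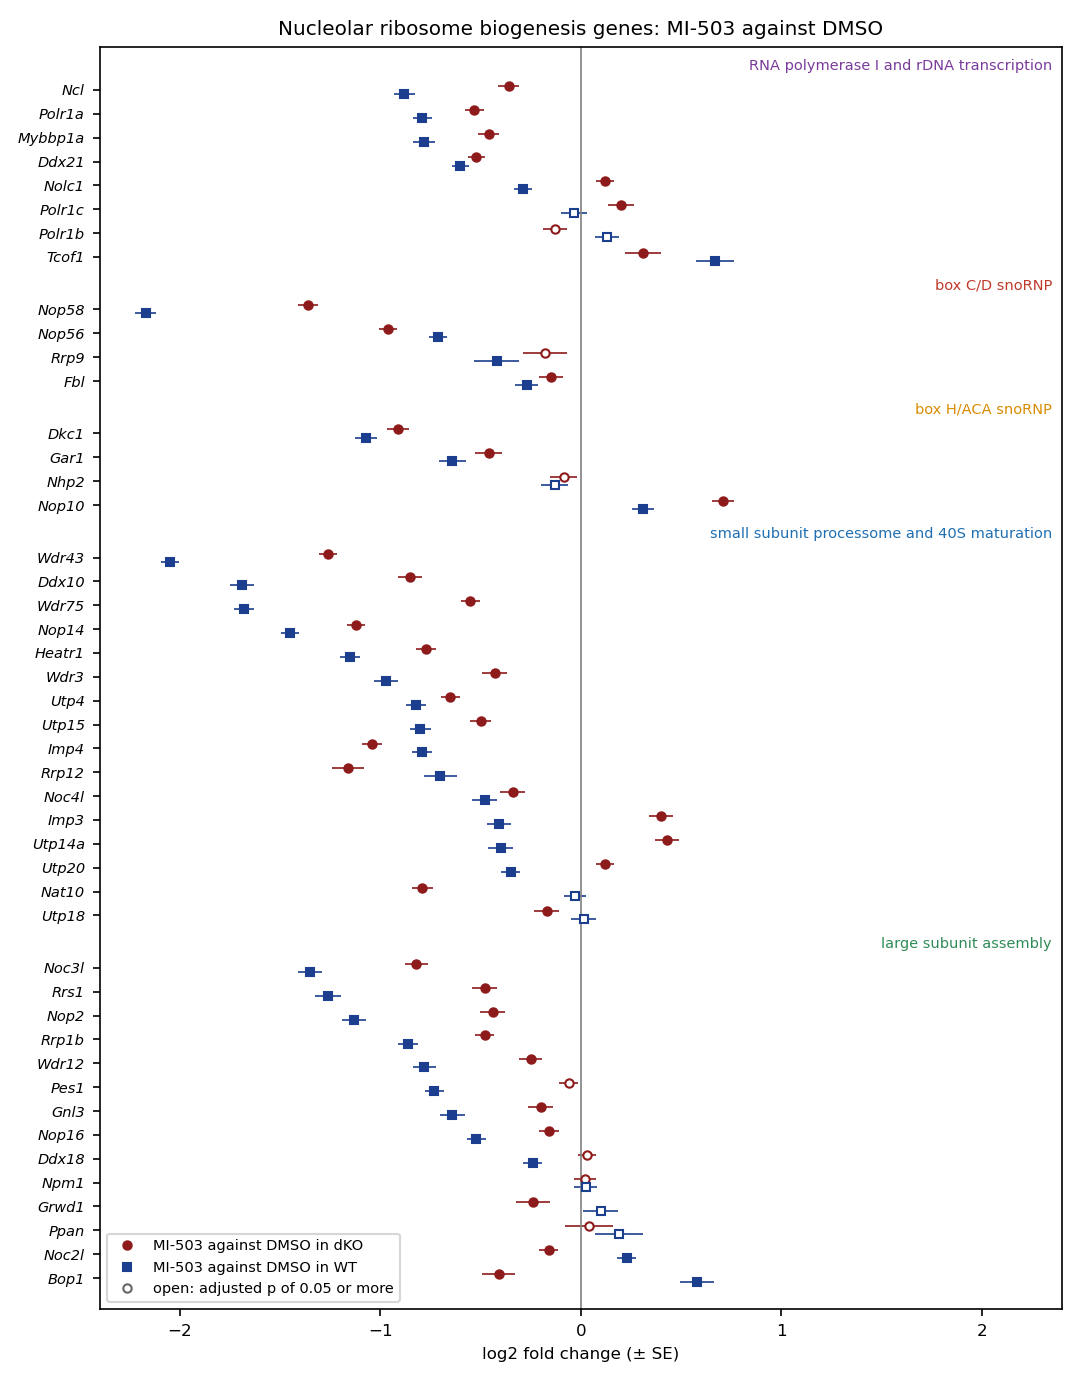
Log2 fold change for MI-503 against DMSO in dKO (circles) and in WT (squares) for the 46 genes, by role and ordered by the WT value, with bars of 1 standard error and open symbols where the adjusted p was 0.05 or more. Most symbols lie left of 0, the WT squares mostly further left than the dKO circles, with Nop58 at -1.36 in dKO and -2.17 in WT, and Bop1 on opposite sides at -0.41 and 0.58.

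The numbers of fallen genes varied little when libraries were left out, from 28 to 32 in dKO and from 33 to 35 in WT. The number of risen genes was less stable: in dKO it was 3 without dKO MI-503 replicate 1 and 4 without dKO DMSO replicate 2, and in WT it was 10 when counts were scaled by library size only and 7 without the filter on low counts. With library size only, the WT calls of Fbl, Rrp9 and Ddx18 ended, and Polr1b (0.31), Utp18 (0.19), Nat10 (0.15), Ppan (0.36), Grwd1 (0.28) and Npm1 (0.20) passed as rises in WT. The same 46 genes summed to 0.747% and 0.755% of all counts in dKO MI-503, 0.961% and 0.939% in dKO DMSO, 0.674% and 0.681% in WT MI-503 and 0.925% and 0.927% in WT DMSO. Both MI-503 pairs thus lay below both DMSO pairs on unscaled counts as well. Such sums are weighted toward abundant genes, among them Ncl, Npm1 and Mybbp1a, with means of 1991, 1754 and 868 CPM in WT DMSO. Over the 46 genes, the MI-503 effects in dKO and in WT, which share no library, had a Pearson correlation of 0.712, against 0.611 over all genes tested; genes are not independent replicates, and the value is a description.

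The stretches before the start sites of 5 of these genes show the kind of promoter involved. Nop58 and Wdr43 had the largest falls with MI-503 in WT, Nop2 and Imp4 had the largest falls among genes with the letters CACGTG before the start, and Nop10 is one of the genes that rose in both genotypes. Each line gives the 250 bases before the promoter start listed for that gene (RefSeq, GRCm38.p6). It reads 5′ to 3′ on the gene's strand, which is the plus strand for all of these genes. For Nop58 and Wdr43 the listed start lies inside the annotated gene, which begins at 59684961 and 71616178. The ends of these stretches therefore overlap the gene. Capitals mark CACGTG (the E-box bound by MYC and related factors), GGGCGG (an SP1-type box) and CCGGAAG (an ETS-type motif) or their reverse complements. The stretches lie at chr1:59684756-59685005 (Nop58), chr17:71615965-71616214 (Wdr43), chr6:125131633-125131882 (Nop2), chr1:34439579-34439828 (Imp4) and chr2:112261676-112261925 (Nop10).
Nop58: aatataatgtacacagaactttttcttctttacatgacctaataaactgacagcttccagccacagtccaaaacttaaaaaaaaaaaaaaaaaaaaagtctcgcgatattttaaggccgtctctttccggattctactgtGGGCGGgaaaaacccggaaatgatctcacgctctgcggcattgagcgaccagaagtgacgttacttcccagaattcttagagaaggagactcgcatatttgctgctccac
Wdr43: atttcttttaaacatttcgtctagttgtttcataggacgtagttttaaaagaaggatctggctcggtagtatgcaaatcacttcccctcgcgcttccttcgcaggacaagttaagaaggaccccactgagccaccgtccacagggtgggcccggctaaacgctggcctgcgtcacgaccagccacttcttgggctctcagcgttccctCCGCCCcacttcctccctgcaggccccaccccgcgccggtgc
Nop2: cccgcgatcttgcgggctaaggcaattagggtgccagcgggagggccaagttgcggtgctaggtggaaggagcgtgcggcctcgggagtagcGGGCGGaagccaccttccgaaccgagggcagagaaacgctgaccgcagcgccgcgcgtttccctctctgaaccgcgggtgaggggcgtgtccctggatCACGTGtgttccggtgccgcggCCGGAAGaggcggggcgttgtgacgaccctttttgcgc
Imp4: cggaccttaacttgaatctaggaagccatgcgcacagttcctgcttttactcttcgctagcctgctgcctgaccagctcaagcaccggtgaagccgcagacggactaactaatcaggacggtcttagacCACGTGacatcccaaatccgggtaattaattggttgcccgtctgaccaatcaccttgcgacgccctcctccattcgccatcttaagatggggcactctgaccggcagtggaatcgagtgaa
Nop10: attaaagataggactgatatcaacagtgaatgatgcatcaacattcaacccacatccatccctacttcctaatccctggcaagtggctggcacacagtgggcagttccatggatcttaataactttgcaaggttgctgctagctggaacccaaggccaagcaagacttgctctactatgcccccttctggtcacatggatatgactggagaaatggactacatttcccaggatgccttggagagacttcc

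The Nop58 and Wdr43 stretches each hold 1 SP1-type box, and neither holds an E-box. Nop2 holds an E-box 60 bases before its start, with 1 SP1-type box and 1 ETS-type motif, and Imp4 holds an E-box 121 bases before its start. The Nop10 stretch holds none of these motifs. In the table used, 44 promoters, each reaching from 250 bases before to 50 after the start, belonged to 40 of the 46 genes. On either strand, 20.5% of these 44 held the E-box, against 9.6% of the 13900 promoters of all genes tested and 7.2% of all 32851 promoters. The ETS-type motif was in 34.1% of the 44, against 16.5% of promoters of genes tested, and the SP1-type box in 68.2%, against 60.9%. The element CTCGCGAG was in 0 of the 44 and in 1.7% of promoters of genes tested. Of the 9 genes with an E-box in this window, Imp4, Mybbp1a, Nop2, Pes1, Utp20, Utp4 and Wdr43 fell with MI-503 in WT, while Grwd1 and Utp18 did not pass the test. This is 7 of 9, against 31 of all 40 genes with a listed promoter, a like share. A match is a description of letters, not of binding.

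Among the 8 genes of RNA polymerase I and ribosomal DNA transcription, 4 fell and 3 rose with MI-503 in dKO. There, 26.5% and 29.1% of all genes fell and rose. In WT 5 of the 8 fell and 1 rose, where 33.7% and 35.2% of all genes fell and rose. Nucleolin, encoded by Ncl (ENSMUSG00000026234, chromosome 1, 86344719 to 86359455, GRCm38.p6), is an abundant nucleolar protein that binds the nascent precursor. Ncl measured 1177 and 1175 CPM in dKO MI-503, 1565 and 1444 CPM in dKO DMSO, 1061 and 1107 CPM in WT MI-503 and 1935 and 2047 CPM in WT DMSO. Both MI-503 pairs lay below both DMSO pairs, and no groups overlapped within a genotype. Ncl fell, with a log2 fold change of -0.36 in dKO (SE 0.053, adjusted p = 5.52e-05) and -0.88 in WT (SE 0.053, adjusted p = 3.16e-09), and the difference of these effects, dKO minus WT, was 0.52 (SE 0.074, adjusted p = 5.97e-05). Polr1a, the largest subunit of the polymerase, fell, at -0.53 in dKO and -0.79 in WT. The core subunit Polr1b passed in neither genotype, at -0.13 (SE 0.059) in dKO and 0.13 (SE 0.060) in WT. Polr1c, a subunit shared with RNA polymerase III, rose by 0.20 in dKO and did not pass in WT, at -0.032. Its dKO call ended without dKO DMSO replicate 2 and without dKO MI-503 replicate 1 (0.17 at the smallest), and the calls of the other risen genes of this role in dKO, Tcof1 and Nolc1, also ended without single libraries. Mybbp1a, a nucleolar regulator of ribosomal DNA, fell, at -0.46 in dKO and -0.78 in WT, as did the RNA helicase Ddx21, at -0.52 and -0.60.

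Tcof1 went the other way. It encodes treacle, which recruits the polymerase to ribosomal DNA, and it lies on chromosome 18, from 60813738 to 60848983. Tcof1 measured 99.2 and 85.9 CPM in dKO MI-503, 67.5 and 81.5 CPM in dKO DMSO, 62.5 and 58.1 CPM in WT MI-503 and 40.1 and 35.9 CPM in WT DMSO. The groups did not overlap within a genotype, but the dKO DMSO libraries were far apart. It rose in dKO (0.31, SE 0.090, adjusted p = 0.0088) and in WT (0.67, SE 0.093, adjusted p = 1.86e-05). The dKO call ended without dKO DMSO replicate 1, where the value was 0.18, and without dKO MI-503 replicate 1; over the left-out libraries it ran from 0.18 to 0.45. Nolc1, which encodes a chaperone of box C/D and H/ACA particles, fell by 0.29 in WT and rose by 0.12 in dKO, a call that ended in 6 of the 8 fits with a library left out (0.10 to 0.14).

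Box C/D particles methylate ribosomal RNA. The 4 genes counted here for their proteins, which are Nop56, Nop58, Fbl and Rrp9, fell with MI-503 in WT, and 3 of them fell in dKO; Snu13, another core protein, was counted with the other pathway genes. Nop58 (ENSMUSG00000026020, chromosome 1, 59684961 to 59711510), a core protein of these particles, fell furthest of the 46 genes in both genotypes. Nop58 measured 145 and 147 CPM in dKO MI-503, 387 and 361 CPM in dKO DMSO, 102 and 110 CPM in WT MI-503 and 475 and 481 CPM in WT DMSO. The 4 MI-503 libraries lay far below the 4 DMSO libraries. The log2 fold change was -1.36 in dKO (SE 0.051, adjusted p = 1.15e-10) and -2.17 in WT (SE 0.052, adjusted p = 5.35e-13), with a difference of 0.81 (adjusted p = 7.63e-07).

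Nop56, the partner of Nop58 in the particle, measured 185 and 192 CPM in dKO MI-503, 372 and 360 CPM in dKO DMSO, 113 and 113 CPM in WT MI-503 and 188 and 181 CPM in WT DMSO. Its dKO DMSO libraries were the highest, and its dKO MI-503 libraries sat at the level of WT DMSO. Nop56 fell, at -0.96 in dKO (SE 0.045, adjusted p = 8.98e-10) and -0.71 in WT (SE 0.045, adjusted p = 5.88e-09), and it was 1 of 3 genes, with Imp4 and Rrp12, that fell in both genotypes with a fall larger in dKO by the test of the difference (-0.25, adjusted p = 0.00575). For Imp4 that call ended without WT MI-503 replicate 1 (-0.22). Fbl, the methyltransferase fibrillarin, measured 116 and 104 CPM in dKO MI-503, 118 and 126 CPM in dKO DMSO, 132 and 127 CPM in WT MI-503 and 159 and 152 CPM in WT DMSO. Its falls were the smallest of this set, at -0.15 in dKO (adjusted p = 0.0436) and -0.27 in WT (adjusted p = 0.000997). The dKO call ended in 4 of the 8 fits with a library left out, with values from -0.23 to -0.077, and the WT call ended with library size only. Rrp9, a protein of the U3 particle, fell by 0.42 in WT, a call that ended without WT DMSO replicate 1 (-0.28), and did not pass in dKO at -0.18 (SE 0.11).

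Of the 4 genes for proteins of the box H/ACA particles, which turn uridines into pseudouridines, Dkc1 and Gar1 fell in both genotypes, Nhp2 passed in neither and Nop10 rose in both. Dkc1 (ENSMUSG00000031403, chromosome X, 75095854 to 75109776) encodes the pseudouridine synthase dyskerin. Dkc1 measured 107 and 113 CPM in dKO MI-503, 216 and 196 CPM in dKO DMSO, 102 and 104 CPM in WT MI-503 and 214 and 218 CPM in WT DMSO. In DMSO the genotypes overlapped, and Dkc1 fell, at -0.91 in dKO (SE 0.054, adjusted p = 8.03e-09) and -1.07 in WT (SE 0.054, adjusted p = 5.03e-10), with a difference of 0.16 (SE 0.076) that did not pass. Nop10, a small structural protein of the same particle, measured 71.7 and 76.4 CPM in dKO MI-503, 46.6 and 44.0 CPM in dKO DMSO, 77.3 and 80.3 CPM in WT MI-503 and 64.5 and 62.8 CPM in WT DMSO. It rose by 0.71 in dKO (SE 0.056, adjusted p = 1.28e-07) and by 0.31 in WT (SE 0.055, adjusted p = 0.000198), so genes for proteins of a single particle changed in opposite directions.

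Most of the 16 genes of the small subunit processome and of 40S maturation fell. In dKO 13 fell and 3 rose, with a median of -0.60, where 26.5% and 29.1% of all genes fell and rose. In WT 14 fell and none rose, with a median of -0.80, where 33.7% and 35.2% of all genes fell and rose. Wdr43 and Wdr75 encode subunits of UTP-A, the complex that binds the start of the precursor. Wdr43 (ENSMUSG00000041057, chromosome 17, 71616178 to 71659031) measured 132 and 132 CPM in dKO MI-503, 321 and 311 CPM in dKO DMSO, 116 and 113 CPM in WT MI-503 and 474 and 474 CPM in WT DMSO. Replicates lay close together, and the groups were far apart in both genotypes. Wdr43 fell, at -1.26 in dKO (SE 0.043, adjusted p = 5.07e-11) and -2.05 in WT (SE 0.044, adjusted p = 2.22e-13).

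Wdr75 (ENSMUSG00000025995, chromosome 1, 45795153 to 45823638) measured 90.4 and 96.6 CPM in dKO MI-503, 139 and 134 CPM in dKO DMSO, 79.6 and 81.8 CPM in WT MI-503 and 256 and 263 CPM in WT DMSO. Its WT DMSO libraries stood above the other 6. Wdr75 fell, at -0.55 in dKO and -1.68 in WT, and the difference of 1.14 (SE 0.069, adjusted p = 2.88e-08) was the largest of the 46 genes. The other UTP-A genes, Heatr1, Utp4 and Utp15, fell, at -0.77, -0.65 and -0.50 in dKO and -1.15, -0.82 and -0.80 in WT. Of the UTP-B complex, Wdr3 fell, at -0.43 in dKO and -0.97 in WT. Utp18, of the same complex, measured 65.9 and 67.7 CPM in dKO MI-503, 78.3 and 72.2 CPM in dKO DMSO, 61.4 and 63.7 CPM in WT MI-503 and 58.5 and 65.3 CPM in WT DMSO. Its WT groups overlapped and the change there did not pass (0.015, SE 0.063), and its call in dKO (-0.17) ended in 3 of the 8 fits with a library left out (-0.23 to -0.12).

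Nop14, a scaffold of the processome, fell, at -1.12 in dKO and -1.45 in WT, and its partner Noc4l fell, at -0.34 and -0.48. The helicase Ddx10 fell, at -0.85 in dKO and -1.69 in WT. Rrp12, known from yeast as a factor in the export of subunits, measured 35.8 and 32.1 CPM in dKO MI-503, 70.5 and 81.8 CPM in dKO DMSO, 20 and 19.4 CPM in WT MI-503 and 33.3 and 30.8 CPM in WT DMSO. Its dKO DMSO libraries were the highest by a wide margin. Rrp12 fell, at -1.16 in dKO (SE 0.079, adjusted p = 2.91e-08) and -0.70 in WT (SE 0.082, adjusted p = 3.42e-06). Imp4 fell, at -1.04 in dKO and -0.79 in WT. Nat10, which acetylates the small subunit RNA, fell by 0.79 in dKO and did not pass in WT (-0.028, SE 0.055; 0.15 with library size only, a rise that passed), with a tested difference of -0.77 (adjusted p = 2.78e-06).

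Imp3, Utp14a and Utp20 of the same set fell in WT and rose in dKO. Imp3, a partner of Imp4 on the U3 RNA, measured 41.0 and 40.6 CPM in dKO MI-503, 29.9 and 31.8 CPM in dKO DMSO, 41.0 and 39.7 CPM in WT MI-503 and 55.4 and 51.7 CPM in WT DMSO. The MI-503 libraries of both genotypes lay at one level, between the DMSO pairs. Imp3 rose by 0.40 in dKO (SE 0.060, adjusted p = 6.33e-05) and fell by 0.41 in WT (SE 0.060, adjusted p = 2.96e-05), with a difference of 0.81 (adjusted p = 3.84e-06). Utp14a, known from yeast as an activator of a processome helicase, measured 95.4 and 102 CPM in dKO MI-503, 77.4 and 68.9 CPM in dKO DMSO, 111 and 120 CPM in WT MI-503 and 149 and 155 CPM in WT DMSO. It too had its MI-503 libraries between the DMSO pairs, and it rose by 0.43 in dKO (SE 0.062, adjusted p = 4.23e-05) and fell by 0.40 in WT (SE 0.061, adjusted p = 4.87e-05). The rise of Utp20 in dKO was 0.12, and its call ended in 7 of the 8 fits with a library left out (0.089 to 0.15).

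Of the 14 genes of large subunit assembly, 10 fell and none rose in dKO, where 26.5% and 29.1% of all genes did. In WT 9 fell and 2 rose, where 33.7% and 35.2% of all genes fell and rose. The median of the 14 was -0.22 in dKO and -0.58 in WT. Noc3l (ENSMUSG00000024999, chromosome 19, 38788121 to 38820310), an assembly factor of early large subunits, measured 44.3 and 46.4 CPM in dKO MI-503, 82.9 and 77.4 CPM in dKO DMSO, 38.9 and 40.9 CPM in WT MI-503 and 98.1 and 105 CPM in WT DMSO. All 4 MI-503 libraries lay below all 4 DMSO libraries. Noc3l fell, at -0.82 in dKO (SE 0.059, adjusted p = 5.26e-08) and -1.35 in WT (SE 0.059, adjusted p = 1.33e-10). Rrs1, which loads the 5S particle, fell, at -0.48 in dKO and -1.26 in WT, and Nop2, an RNA methyltransferase, fell, at -0.44 and -1.13. Gnl3, which encodes nucleostemin, fell by 0.20 in dKO, a call that ended without dKO DMSO replicate 1 and without dKO MI-503 replicate 1 (-0.15 at the smallest), and fell by 0.64 in WT. The dKO calls of Nop16, Noc2l and Grwd1 also ended without single libraries. Npm1, the abundant nucleolar chaperone nucleophosmin, ranged from 1473 to 1819 CPM over the 8 libraries and passed in neither genotype, at 0.020 in dKO and 0.024 in WT (SE 0.056 for each).

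The PeBoW complex, made of Pes1, Bop1 and Wdr12 and needed for the large subunit RNA, did not move as a unit. Pes1 measured 158 and 161 CPM in dKO MI-503, 170 and 163 CPM in dKO DMSO, 168 and 170 CPM in WT MI-503 and 289 and 273 CPM in WT DMSO. The WT DMSO pair stood alone above the other 6 libraries. Pes1 fell by 0.73 in WT (SE 0.047, adjusted p = 5.59e-09) and did not pass in dKO, at -0.061 (SE 0.047). Bop1 (ENSMUSG00000022557, chromosome 15, 76452988 to 76477249) measured 78.7 and 71.4 CPM in dKO MI-503, 92.8 and 107 CPM in dKO DMSO, 56.4 and 51.3 CPM in WT MI-503 and 38.5 and 33.4 CPM in WT DMSO. Its dKO DMSO libraries were the highest and its WT DMSO libraries, the highest for Pes1, were the lowest. Bop1 fell by 0.41 in dKO (SE 0.081, adjusted p = 0.000688) and rose by 0.58 in WT (SE 0.085, adjusted p = 2.90e-05). Wdr12 fell, at -0.25 in dKO and -0.78 in WT.

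**Figure D2:**
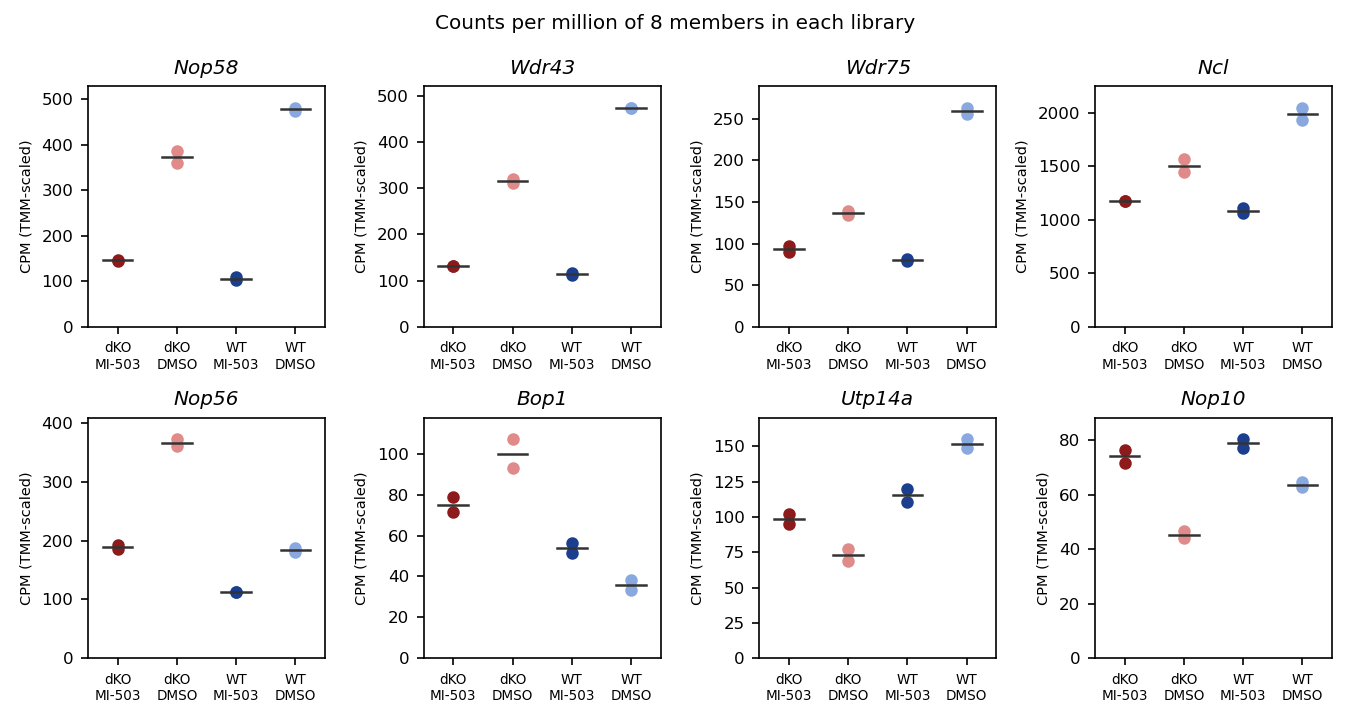
TMM-scaled CPM of 8 of the genes in each library (points) with group means (lines), every vertical axis starting at 0. Nop58, Wdr43, Wdr75 and Ncl are highest in WT DMSO and low in both MI-503 groups, Nop56 and Bop1 are highest in dKO DMSO, Utp14a is lowest in dKO DMSO, and Nop10 is higher with MI-503 in both genotypes.

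The effect of MI-503 differed between the genotypes for 34 of the 46 genes by the interaction test, which compares the effect in dKO with that in WT. The difference was positive for 25 and negative for 9, where 24.8% and 22.0% of all genes tested had a positive and a negative one, and its median was 0.29 against 0.018 for all genes. Of the 27 genes that fell in both genotypes, 18 had a smaller fall in dKO by this test, 3 had a larger fall in dKO, and 6 did not pass. The 6 were Ddx21, Fbl, Dkc1, Gar1, Utp4 and Noc4l. All 4 groups enter this test, WT DMSO among them, and with library size only the median difference was 0.13.

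With DMSO alone, the genotypes differed in both directions. There, 25 of the genes (54.3%) fell and 14 (30.4%) rose in dKO against WT, with a median of -0.16 against -0.052 for all genes. Of all genes tested, 35.8% fell and 29.6% rose, so the risen share was near that of all genes. This comparison shares the WT DMSO libraries with the MI-503 effect in WT and with the interaction, and it depended on the scaling. With library size only, 15 of the genes fell, the median was 0.065, and the median of all genes moved by 0.23. The median of the 46 genes less that of all genes was -0.11 under either scaling. Scaling shifts all genes by nearly the same amount, so this difference cannot test it. The unscaled share of counts for the 46 genes was 0.961% and 0.939% in dKO DMSO, against 0.925% and 0.927% in WT DMSO. By contrast, their summed TMM-scaled CPM were 9222 and 8920 in dKO DMSO, against 10327 and 10395 in WT DMSO. Abundant genes weigh most in either sum.

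Genes lower in dKO in DMSO included Utp14a (-1.06, SE 0.062, adjusted p = 3.58e-09), Wdr75 (-0.92, SE 0.048, adjusted p = 1.08e-09), Imp3 (-0.80, SE 0.060, adjusted p = 4.90e-08), Ddx10 (-0.76) and Pes1 (-0.75). Genes higher in dKO in DMSO included Bop1 (1.47, SE 0.085, adjusted p = 2.88e-09), Rrp12 (1.25, SE 0.079, adjusted p = 7.88e-09), Nop56 (0.99, SE 0.045, adjusted p = 2.83e-10), Tcof1 (0.97) and Nat10 (0.95). These 10 kept their direction and their call under every scaling and with each library left out. The falls of Gnl3, Ddx18, Rrp1b and Npm1, at -0.13 to -0.21 on the log2 scale, turned to values from 0.021 to 0.10 with library size only.

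Under MI-503 the genotypes lay closer together. There, 23 of the genes rose and 6 fell in dKO against WT, where 26.6% and 28.5% of all genes tested rose and fell, with a median of 0.14 against 0.0071 for all genes. The absolute difference between genotypes was smaller in MI-503 than in DMSO for 29 of the 46 genes, and its median was 0.19 in MI-503 and 0.37 in DMSO. Over all genes tested the medians were 0.35 in MI-503 and 0.52 in DMSO, so the smaller difference was not particular to these genes. For how many of all genes the difference was smaller was not counted. The comparison of genotypes in MI-503 uses no WT DMSO library. The 6 fallen genes were fewer without single libraries, 2 without WT MI-503 replicate 2, 2 without dKO MI-503 replicate 1 and 3 without dKO MI-503 replicate 2, and 3 fell with library size only, with upper quartile scaling and with a stricter filter.

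A group of 10 genes rose in dKO against WT in both treatments: Tcof1, Nolc1, Ddx21, Nop56, Rrp9, Utp4, Nat10, Rrp12, Bop1 and Ppan. Within these, the DMSO call of Ddx21 ended without dKO DMSO replicate 1 (0.12), that of Rrp9 ended without WT DMSO replicate 2 and without dKO DMSO replicate 2 (0.26 at the smallest), and the MI-503 call of Nat10 ended without WT MI-503 replicate 2 and without dKO MI-503 replicate 1 (0.16 at the smallest). The largest differences of the 10 in MI-503 were those of Rrp12 (0.79, SE 0.082, adjusted p = 2.10e-06) and Nop56 (0.74, SE 0.045, adjusted p = 8.66e-09). Another 10, Nop58, Wdr43, Wdr75, Utp20, Nop2, Rrs1, Noc3l, Gnl3, Ddx18 and Rrp1b, fell in DMSO and rose in MI-503. Neither combination of calls was counted over all genes tested. Nop58, for example, was at 0.46 in MI-503 (adjusted p = 3.67e-06) and -0.35 in DMSO (adjusted p = 2.43e-05), and Rrs1 at 0.47 in MI-503 and -0.32 in DMSO. In DMSO, the calls of Gnl3, Ddx18 and Rrp1b ended without single libraries, and with library size only those of Utp20, Nop2, Rrs1 and Noc3l ended as well. The MI-503 calls of Utp20, Noc3l, Gnl3 and Ddx18 ended without single libraries, at values of 0.14, 0.15, 0.17 and 0.13 at the smallest.

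**Figure D3:**
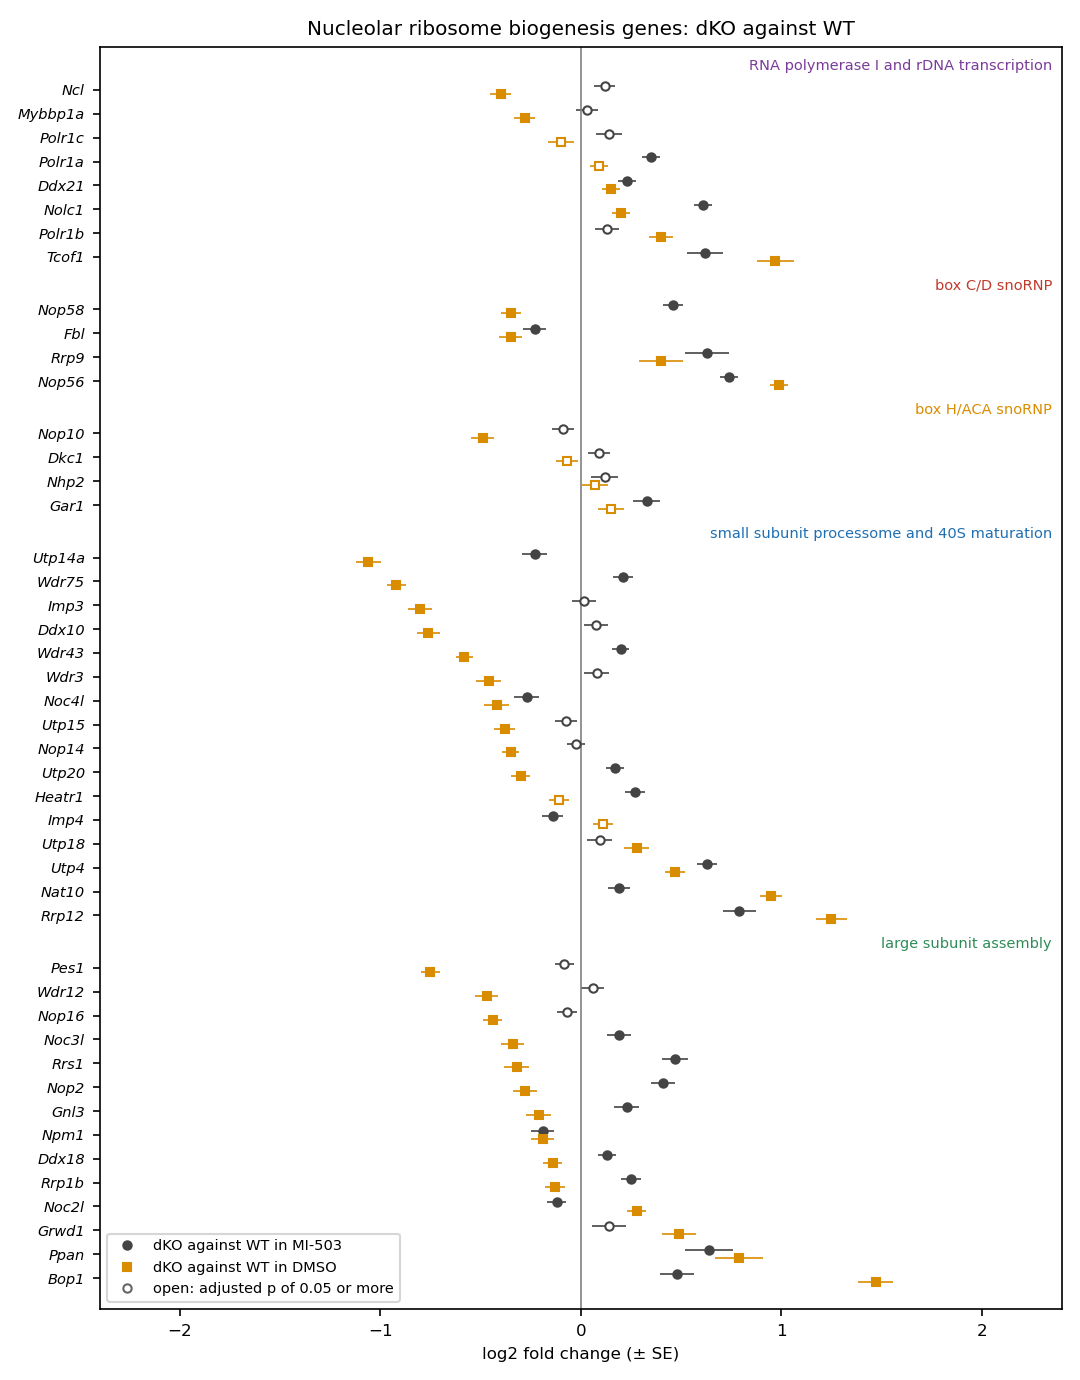
Log2 fold change for dKO against WT in MI-503 (circles) and in DMSO (squares) for the 46 genes, by role and ordered by the DMSO value, with bars of 1 standard error and open symbols where the adjusted p was 0.05 or more. The squares spread from -1.06 (Utp14a) to 1.47 (Bop1), the circles from -0.27 (Noc4l) to 0.79 (Rrp12).

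By group mean, the highest group was dKO MI-503 for 4 of the 46 genes, dKO DMSO for 15, WT MI-503 for 2 and WT DMSO for 25. The lowest group was dKO MI-503 for 7 genes, dKO DMSO for 5, WT MI-503 for 27 and WT DMSO for 7. The highest level was thus most often in WT DMSO and the lowest in WT MI-503, and the rankings of DMSO groups rest on the scaling described above. Such rankings were not counted over all genes tested, so this order is not shown to be particular to these genes.

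Other genes of the pathway mostly fell as well. Of 126 other genes of ribosome biogenesis that were tested, 80 fell and 12 rose with MI-503 in dKO, and 87 fell and 21 rose in WT. All genes tested fell and rose in shares of 26.5% and 29.1% in dKO, and 33.7% and 35.2% in WT. The median of the 126 genes was -0.27 in dKO and -0.48 in WT, against 0.031 for all genes in each. Esf1, a small subunit factor known from yeast, fell furthest of these in WT. Esf1 measured 49.9 and 53.5 CPM in dKO MI-503, 127 and 118 CPM in dKO DMSO, 43.2 and 43.6 CPM in WT MI-503 and 215 and 224 CPM in WT DMSO. The order of its groups was that of Nop58 and Wdr43, and it fell, at -1.24 in dKO (SE 0.054, adjusted p = 4.56e-10) and -2.34 in WT (SE 0.056, adjusted p = 5.19e-13).

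The largest rise in WT in this set was in Polr1d, a subunit of RNA polymerases I and III. In dKO, Rpp25 had a higher fitted value than Polr1d, but it stayed at or below 0.418 CPM in every library; it is named after its values were seen. Polr1d measured 113 and 114 CPM in dKO MI-503, 67.8 and 63.8 CPM in dKO DMSO, 178 and 182 CPM in WT MI-503 and 62.0 and 58.9 CPM in WT DMSO. The MI-503 libraries lay above the DMSO libraries in both genotypes, by 0.79 in dKO (SE 0.050, adjusted p = 1.63e-08) and 1.57 in WT (SE 0.051, adjusted p = 6.84e-12). Pop1, a protein of the RNases P and MRP, had 32.0 and 32.4 CPM in dKO MI-503, 26.8 and 28.5 CPM in dKO DMSO, 25.6 and 24.6 CPM in WT MI-503 and 10.9 and 9.72 CPM in WT DMSO. Its WT DMSO libraries stood below the other 6, and it rose by 0.22 in dKO (adjusted p = 0.0148) and 1.28 in WT (adjusted p = 2.20e-09).

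Small nucleolar RNAs, the guides of the box C/D and H/ACA particles, are often cut from introns of host genes. Among the 46 genes, 7 (15.2%) contain annotated small nucleolar RNA genes in RefSeq (GRCm38.p6), 20 in all, against 2.29% of 12763 protein-coding genes tested. Nop56 holds 5 of them, Nop58 4, Gnl3 3, Wdr43 3, Ncl 2, Ppan 2 and Dkc1 1. Except for Ppan, which passed in neither genotype, these hosts all fell in dKO and in WT. Of all 46 genes, 27 fell in both genotypes. How many protein-coding hosts outside the 46 genes fell was not counted. Counts of hosts and of the small nucleolar RNA genes inside them depend on how reads were assigned. Of 13 noncoding host genes, 7 fell and 4 rose in dKO, and 8 fell and 3 rose in WT. The risen shares were near or below those of all genes, which were 29.1% in dKO and 35.2% in WT, while 26.5% and 33.7% of all genes fell. Snhg5, one of these, measured 20.1 and 22.8 CPM in dKO MI-503, 66.1 and 57.3 CPM in dKO DMSO, 11.4 and 11.5 CPM in WT MI-503 and 52.3 and 54.0 CPM in WT DMSO. It lay far lower with MI-503 in both genotypes, at -1.53 in dKO (SE 0.079, adjusted p = 2.22e-09) and -2.21 in WT (SE 0.084, adjusted p = 2.90e-11) on the log2 scale.

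The genes for the proteins of the ribosome itself mostly rose or did not pass. Of all genes tested, 29.1% rose and 26.5% fell with MI-503 in dKO, and 35.2% rose and 33.7% fell in WT. Of 85 cytosolic ribosomal protein genes tested, 49 rose and 1 fell in dKO, with a median of 0.18. In WT 44 of the 85 rose and 13 fell, with a median of 0.19. Their summed CPM were 63171 and 62651 in dKO MI-503, 55833 and 55313 in dKO DMSO, 65532 and 66556 in WT MI-503 and 58801 and 57414 in WT DMSO. Many ribosomal protein genes have processed pseudogenes of near-identical sequence, so single values among them are uncertain.

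Myc, the transcription factor gene named above, fell in both genotypes, as most of the 46 genes did. Myc measured 190 and 164 CPM in dKO MI-503, 278 and 328 CPM in dKO DMSO, 177 and 166 CPM in WT MI-503 and 484 and 443 CPM in WT DMSO. All MI-503 libraries lay at one low level and WT DMSO at the highest. Myc fell, at -0.78 in dKO (SE 0.082, adjusted p = 2.15e-06) and -1.43 in WT (SE 0.083, adjusted p = 2.05e-09), with a difference of 0.65 (adjusted p = 0.00037). Against WT, dKO was lower in DMSO (-0.61, adjusted p = 1.42e-05) and not distinguishable in MI-503 (0.039, SE 0.082). The part of Myc in the changes of the 46 genes was not tested.

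Genes of S phase and mitosis went against the ribosome biogenesis genes. Over all genes tested, 29.1% rose and 26.5% fell with MI-503 in dKO, and 35.2% rose and 33.7% fell in WT. Of 21 genes of S phase and mitosis, 19 rose and 1 fell in dKO, and 13 rose and 2 fell in WT. Their summed CPM were 3648 and 3657 in dKO MI-503, 2505 and 2398 in dKO DMSO, 2368 and 2392 in WT MI-503 and 1887 and 1843 in WT DMSO. Among marker genes of other cell types, Vim, Acta2 and Cd68 were also higher with MI-503, but not all were. Of 7 fibroblast and smooth muscle markers tested, 3 rose and 0 fell in dKO, and 3 rose and 1 fell in WT. Des had 37 and 22 counts in WT MI-503, against 4 and 1 in WT DMSO. Pdgfrb had 2 and 2 counts in WT MI-503, against 24 and 20 in WT DMSO. Myh11 measured 0.19 and 0.284 CPM in WT MI-503, against 0.293 and 0.364 CPM in WT DMSO, and Tagln stayed at or below 9 counts in each library. The 12 fibroblast and smooth muscle markers summed to 29.2 to 31.0 CPM in dKO MI-503, 8.34 to 9.31 in dKO DMSO, 66.3 to 71.9 in WT MI-503 and 5.01 to 6.23 in WT DMSO, with 3 to 5 of the 12 at 0 in each library. The 6 immune markers summed to 61.2 to 69.9 CPM in dKO MI-503, 13.1 to 13.2 in dKO DMSO, 161 to 166 in WT MI-503 and 16.5 to 18.7 in WT DMSO, nearly all from Cd68, with 1 to 4 of the 6 at 0. Of the fibroblast markers, Col1a2, Dcn and Lum were at 0, but Pdgfra measured 7.41 and 8.27 CPM in dKO MI-503, 3.44 and 3.95 CPM in dKO DMSO, 1.21 and 1.49 CPM in WT MI-503 and 0.928 and 1.24 CPM in WT DMSO. The part of these shifts in the changes described was not tested.

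**Figure D4:**
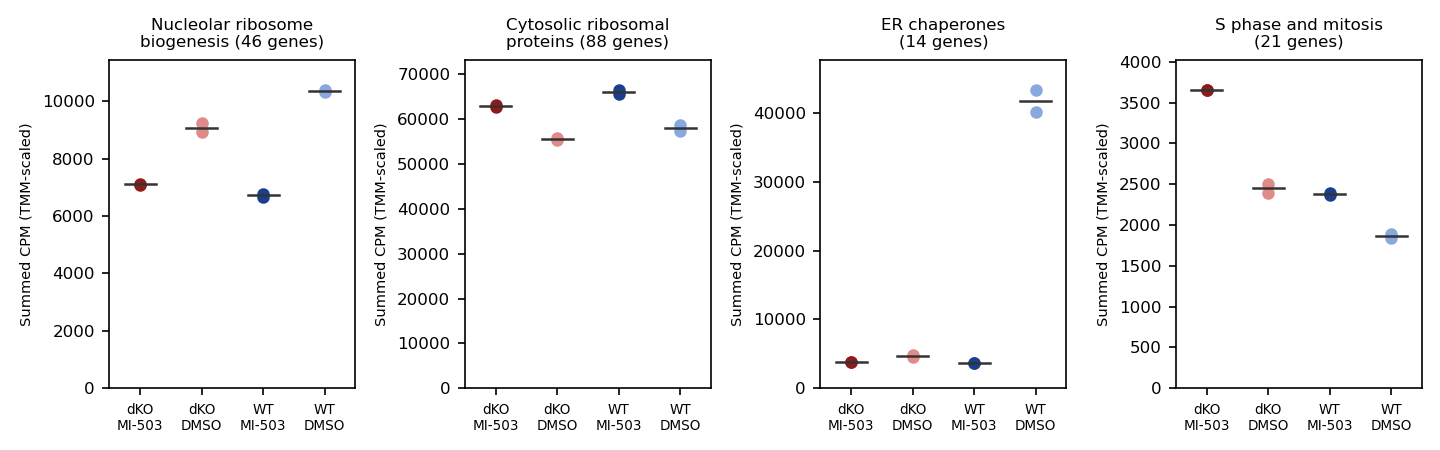
Summed TMM-scaled CPM of 4 gene lists in each library (points) with group means (lines), every vertical axis starting at 0. The ribosome biogenesis genes are lower in both MI-503 groups, the ribosomal protein genes and the S phase and mitosis genes are higher there, and the ER chaperone genes stand out in WT DMSO at 40120 and 43349 CPM.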

How the data were processed

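The deposited values are raw read counts per Ensembl gene for 8 RNA-seq libraries; they are whole numbers with unequal totals and carry no normalization. Per the submitters' processing notes, the series used STAR, Bowtie2, SICER, MACS3 and deepTools, with GRCm38 and mm10 as builds. Not given in the sources used here are the counter, the strand mode and the annotation version, so overlapping, antisense and near-identical genes are uncertain. The other 32 of 40 samples were not analysed here. Of 53465 gene identifiers, 53274 had a symbol, and 1 row lacking an identifier was dropped. Counting error alone lets a count of 0 stand for as many as 3 counts, which is 0.0438 to 0.0516 CPM.

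edgeR 4.0.16 (R 4.3.3) was used throughout. Its filterByExpr step (count of at least 10, total of at least 15) retained 16921 genes and removed 36544. TMM factors spanned 0.892 to 1.06. All 8 libraries entered a single quasi-likelihood fit with a mean for each group, 4 residual degrees of freedom, a biological coefficient of variation of 5.98% and a prior count of 0.125. Two-sided F tests were adjusted across all tested genes (Benjamini-Hochberg, threshold 0.05), and each standard error (SE) was derived from F. With 2 libraries a side, exact permutation reaches p = 0.33 at best (two-sided). Replicates differed beyond counting noise (chi-square per gene 5.48 to 14.3). The fit was tested on simulated data.

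Comparisons were MI-503 against DMSO in each genotype, the difference of these effects, and dKO against WT in each treatment. Members, role groups, lists and tests were chosen with earlier results of these data known. Of 147 other pathway genes listed, 141 were matched. Values in every library are given for the members with the lowest and highest MI-503 effect in WT in each role, the 3 lowest and 3 highest in dKO against WT in DMSO, the 4 with the smallest p in the interaction and the extremes with MI-503 in dKO, for the lowest and highest pathway genes, and for Myc. Alternatives were RLE factors, library size only, upper quartile scaling, TMM computed without ER chaperone and ribosomal protein genes, DESeq2 1.42.0, no filter, a filter of 5 CPM, fits to the compared groups alone, a term for replicate number, and leaving libraries out singly. Positions and promoters came from RefSeq (GRCm38.p6) by symbol. Python 3.11.15 with matplotlib 3.10.9 drew the plots.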

Additional observations from a re-analysis of the deposited data

Results flagged for a closer look

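The MI-503 effect in dKO differed from that in WT, by the test of the difference itself, for 34 of the 46 genes. Values are the log2 effect in dKO minus that in WT. Among transcription genes it was 0.27 for Polr1a, -0.26 for Polr1b, -0.36 for Tcof1, 0.41 for Nolc1, 0.32 for Mybbp1a and 0.52 for Ncl. Among particle proteins it was -0.25 for Nop56, 0.81 for Nop58 and 0.40 for Nop10. For small subunit genes it was 0.38 for Heatr1, 0.30 for Utp15, 0.79 for Wdr43, 1.14 for Wdr75, 0.83 for Utp14a, 0.47 for Utp20, 0.54 for Wdr3, 0.81 for Imp3, -0.25 for Imp4, 0.33 for Nop14, -0.77 for Nat10, -0.46 for Rrp12 and 0.84 for Ddx10. For large subunit genes it was 0.67 for Pes1, -0.99 for Bop1, 0.53 for Wdr12, 0.69 for Nop2, 0.37 for Nop16, 0.79 for Rrs1, -0.40 for Noc2l, 0.53 for Noc3l, 0.44 for Gnl3, 0.27 for Ddx18, 0.38 for Rrp1b and -0.35 for Grwd1. Edge cases by adjusted p were Tcof1 (0.0368), Grwd1 (0.0312) and Polr1b (0.0202), and each of these calls ended in 4 of the 8 fits with a library left out (Tcof1 from -0.48 to -0.21). The call of Imp4 ended without WT MI-503 replicate 1, and with library size only those of Polr1a, Mybbp1a, Utp15 and Ddx18 ended. With groups of 2 libraries no single library could be set against its own group.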

How the results depend on the processing

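Of the calls of the 46 genes, 29 of 39 for MI-503 in dKO, 35 of 38 for MI-503 in WT, 26 of 34 for the interaction, 27 of 39 for dKO against WT in DMSO and 19 of 29 for dKO against WT in MI-503 were kept under every alternative. The labels do not say whether replicate numbers mark pairs. Differences between replicates had correlations from -0.0886 to 0.0585 between groups. These values show no strong shift shared by number, but cannot show how the libraries were handled. With the replicate block, the fallen and risen genes numbered 31 and 6 for MI-503 in dKO and 34 and 4 in WT, and in dKO against WT they numbered 4 and 23 in MI-503 and 25 and 14 in DMSO. The interaction had 26 positive and 9 negative calls. TMM computed without ER chaperone and ribosomal protein genes kept every call of the 46 genes in each comparison. The limits are the 2 libraries per group, the scaling of WT DMSO and unknown counting settings; the causes of the shifts below were not tested.

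Medians of the 46 genes moved as follows. For MI-503 in dKO (-0.38), the median was -0.36 with upper quartile scaling and -0.41 without the filter or with only the groups compared. For MI-503 in WT (-0.64), it was -0.61 with RLE factors and with DESeq2, -0.47 with library size only, -0.56 with upper quartile scaling, -0.57 without the filter and -0.60 with the stricter one. For the interaction (0.29), it was 0.26 with RLE factors, DESeq2 and the stricter filter, 0.13 with library size only, 0.23 with upper quartile scaling and 0.19 without the filter. For dKO against WT in MI-503 (0.14), it was 0.21 with library size only, 0.19 with upper quartile scaling and 0.20 with the stricter filter. For dKO against WT in DMSO (-0.16), it turned to 0.065 with library size only, and was -0.12 with RLE factors and DESeq2, -0.052 with upper quartile scaling, -0.071 without the filter, -0.07 with the stricter one and -0.089 with only the groups compared.

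Library size only gave 10 risen genes for MI-503 in WT, 15 fallen genes for dKO against WT in DMSO and 3 fallen genes for dKO against WT in MI-503. In the last comparison upper quartile scaling gave 3 and the stricter filter 3, with 3125 fallen genes over the fewer genes tested. No filter gave 7 risen genes for MI-503 in WT. Library size only moved the median of all genes by 0.23 for dKO against WT in DMSO, 0.17 for MI-503 in WT and -0.16 for the interaction, and upper quartile scaling moved it by 0.11 for dKO against WT in DMSO. The share of higher calls among all calls was 61.7% with library size only, against 45.3%, for dKO against WT in DMSO, 37.2% against 52.9% for the interaction, and without the filter 42.7% for the interaction.

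With 1 library left out, medians ran from -0.39 to -0.35 for MI-503 in dKO, -0.66 to -0.62 for MI-503 in WT, 0.26 to 0.33 for the interaction, 0.14 to 0.16 for dKO against WT in MI-503 and -0.20 to -0.13 for dKO against WT in DMSO. Risen genes for MI-503 in dKO ran from 3 to 6, and fallen genes for dKO against WT in MI-503 from 2 to 6.

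Single genes changed sign. With library size only, the turned values passed for Nat10 with MI-503 in WT (adjusted p = 0.0291) and for Dkc1 (adjusted p = 0.0139) and Heatr1 (adjusted p = 0.0448) in dKO against WT in DMSO; the other turned values below did not pass. For MI-503 in dKO, Npm1 was at -0.0041 without the filter and with only the groups compared. For MI-503 in WT, Polr1c was at 0.14 with library size only, 0.047 with upper quartile scaling, 0.04 without the filter and 0.012 with the stricter one; Nhp2 was at 0.043 with library size only; and Nat10 was at 0.0021 with RLE factors, 0.15 with library size only, 0.051 with upper quartile scaling, 0.0022 with DESeq2, 0.045 without the filter and 0.016 with the stricter one. For the interaction, library size only gave -0.076 for Ddx21, -0.042 for Fbl, -0.11 for Nhp2 and -0.014 for Noc4l. No filter gave -0.015 for Ddx21 and -0.052 for Nhp2, and upper quartile scaling gave -0.011 for Nhp2. For dKO against WT in MI-503, Nop14 was at 0.045 with library size only, 0.032 with upper quartile scaling and 0.042 with the stricter filter. For dKO against WT in DMSO, library size only gave 0.13 for Polr1c, 0.16 for Dkc1, 0.12 for Heatr1, 0.021 for Gnl3, 0.088 for Ddx18, 0.10 for Rrp1b and 0.041 for Npm1. Upper quartile scaling gave 0.018 for Polr1c, 0.044 for Dkc1 and 0.00036 for Heatr1. Dkc1 was also at 0.025 without the filter, 0.026 with the stricter one and 0.007 with only the groups compared.

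Leaving out 1 library also turned the sign of genes that did not pass. For MI-503 in dKO, values ran from -0.13 to 0.23 for Ppan, from -0.0067 to 0.062 for Ddx18 and from -0.042 to 0.08 for Npm1. For MI-503 in WT, values ran from -0.14 to 0.083 for Polr1c, from -0.061 to 0.091 for Utp18, from -0.074 to 0.017 for Nat10 and from -0.024 to 0.07 for Npm1. For the interaction, values ran from -0.036 to 0.13 for Nhp2, from -0.32 to 0.046 for Ppan and from -0.066 to 0.059 for Npm1. For dKO against WT in MI-503, values ran from -0.012 to 0.076 for Mybbp1a and from -0.0013 to 0.039 for Imp3. For dKO against WT in DMSO, values ran from -0.20 to 0.02 for Polr1c, from -0.14 to 0.0046 for Dkc1 and from -0.0077 to 0.16 for Nhp2.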
